A study of Mus musculus with 16 samples.

Results

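The regions described here were stretches of open chromatin that lay inside introns, away from promoters, and that recurred in a few of 16 ATAC-seq libraries of mouse T cells. ATAC-seq marks open chromatin with a transposase that cuts accessible DNA and inserts sequencing adapters, and places where fragments pile up above the local background are called as peaks. Autosomal peaks of all 16 libraries were merged into regions wherever they overlapped by 1 bp or more. A region was kept when 2 to 4 libraries held a peak in it, when it lay more than 1000 bp from every annotated transcription start, and when its midpoint fell in the body of a protein-coding gene and in no exon. By this rule 20975 of 510542 merged autosomal regions (4.11%) were members, and they are called intronic regions below.

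The libraries came from spleen CD8+ T cells that carried the OT-I receptor, were activated with its ovalbumin peptide and were then grown with IL-2 to give effector cells (TE) or with IL-15 to give memory cells (TM). The donors were young adult mice of both sexes and were wild type (WT, genotype label TPdh+/+) or TPdh-/-. In TPdh-/- mice a floxed Pdha1 allele was deleted by a Cre recombinase under the Cd4 promoter, which acts in the thymus before CD4 and CD8 cells part, so that their T cells lacked the E1 subunit of the pyruvate dehydrogenase complex. The 4 groups were WT TE, WT TM, TPdh-/- TE and TPdh-/- TM, with 4 libraries each. The labels gave no batch and did not say whether each library came from its own mouse, so a p-value below measures only the spread between these libraries. Pdha1 is X-linked, so its deletion could not be checked in autosomal regions.

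Introns hold many enhancers, the stretches of open DNA where transcription factors bind and from which a promoter at a distance is controlled. Memory and effector T cells are known to use different sets of them, with factors of the RUNX, ETS, AP-1, T-box and TCF families among those that bind. Introns of mammals are also rich in simple repeats, in which a short unit such as CA or GA follows itself many times. Such tracts vary in length between animals, and reads that lie wholly inside one are hard to place.

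The number of libraries, the distance to a start and the place in a gene chose the members and are given here as a description. Of the 20975 intronic regions, 16886 (80.5%) were held by 2 libraries, 3310 (15.8%) by 3 and 779 (3.71%) by 4. Just outside the rule lay 158949 intronic regions held by 1 library and 498 held by 5 or more. At the edge in distance, 376 members lay in the first 250 bp beyond the limit of 1000 bp, and 451 intronic regions of 2 to 4 libraries lay in the last 250 bp inside it. The intronic share of all regions fell from 34.9% of those held by 2 libraries to 32.0% with 3, 24.0% with 4 and 15.5% with 5. Among all 61970 regions held by 2 to 4 libraries, 33.8% were intronic, 45.4% intergenic and 13.2% at promoters. The same rule put 34.2% of evenly spaced 200 bp tiles of the autosomes in introns, 49.9% between genes and 6.83% at promoters, so intronic regions took a share close to that of the genome itself.

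Most of these peaks were small. An intronic region had a median width of 370 bp, with a range of 117 to 1505 bp, and its median distance from the nearest start was 13030 bp. The summit pileup is the number of fragments stacked over the highest base of a peak, and it was solved from the deposited fold enrichment and p-value. In the weakest library that held a region the pileup had a median of 4 fragments and a range of 3 to 24, and in the strongest library a median of 6 and a maximum of 62. The fold enrichment over the local background in the weakest library ran from 1.87 to 15.3 with a median of 3.88. In regions held by 2 libraries the summits lay a median of 107 bp apart, and 11.4% of pairs lay within 20 bp of each other. A small pileup can come from weak opening in all cells or from strong opening in a few of them, and these cannot be told apart in bulk libraries.

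The libraries differed widely in the background at their peaks and in the number of peaks. They held 2270 to 84359 autosomal peaks each. The local background at the peaks rises with the number of usable fragments that lie outside peaks. It averaged 1.18 fragments in WT TE, 0.324 in TPdh-/- TE, 0.411 in WT TM and 0.224 in TPdh-/- TM. The study gives only a minimum of read pairs for its libraries, so how far sequencing depth differed is not known. Of 8 T cell genes, 7 had a peak within 1000 bp of a start in at least 1 library. Cd8b1 had one in 8 libraries, Cd3d and Lck in 6, Cd3g and Cd8a in 3, Cd3e in 2, Cd5 in 1 and Cd2 in 0. Of the CD4 lineage genes, Cd4 had a peak in no library and Zbtb7b in 3. Of 5 B cell genes and 5 myeloid genes, 3 each had one in at least 1 library, in at most 2 and 4 libraries (Csf1r), and Cd79a, Lyz2 and Spi1 had none. The median was 3 libraries for the T cell genes and 1 each for the B cell and myeloid genes. Cd3e, Cd3g, Cd8a, Cd5 and Cd2 had a peak in fewer libraries than Csf1r, so most T cell genes did not stand out.

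Shown here are 200 bases around the mean summit of 9 intronic regions, because these windows hold the letters that the results below count. The first 5 had the highest fold enrichment in their weakest library, the next 2 were those of the 10 strongest with a GA repeat, and the last 2 were held by exactly the 4 libraries of 1 group. The sequences are the plus strand of GRCm38 as given by RefSeq. Capitals mark runs of 6 or more CA or GA units, read on either strand, and the transcription factor motifs defined further on. The windows lie at chr8:125779018-125779217 (Pcnx2), chr11:44655914-44656113 (Ebf1), chr15:33027670-33027869 (Sdc2), chr13:112578136-112578335 (Il31ra), chr5:138982039-138982238 (Pdgfa), chr15:83842838-83843037 (Mpped1), chr9:48183322-48183521 (Nxpe4), chr1:24759614-24759813 (Lmbrd1) and chr14:79243546-79243745 (Zfp957).
Pcnx2: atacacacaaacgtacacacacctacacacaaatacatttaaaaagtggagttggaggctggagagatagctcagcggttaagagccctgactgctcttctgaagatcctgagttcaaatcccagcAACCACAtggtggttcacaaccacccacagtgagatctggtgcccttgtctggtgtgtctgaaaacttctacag
Ebf1: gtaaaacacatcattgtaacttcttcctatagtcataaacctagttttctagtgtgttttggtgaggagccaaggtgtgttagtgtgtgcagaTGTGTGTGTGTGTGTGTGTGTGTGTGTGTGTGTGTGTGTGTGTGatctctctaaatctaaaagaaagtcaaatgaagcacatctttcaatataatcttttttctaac
Sdc2: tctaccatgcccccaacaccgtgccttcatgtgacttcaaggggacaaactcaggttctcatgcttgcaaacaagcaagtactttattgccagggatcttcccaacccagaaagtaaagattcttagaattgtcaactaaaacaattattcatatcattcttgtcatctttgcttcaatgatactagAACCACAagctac
Il31ra: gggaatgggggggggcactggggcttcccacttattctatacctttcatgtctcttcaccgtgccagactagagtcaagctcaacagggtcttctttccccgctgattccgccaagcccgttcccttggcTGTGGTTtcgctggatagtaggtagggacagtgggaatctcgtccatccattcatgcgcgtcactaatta
Pdgfa: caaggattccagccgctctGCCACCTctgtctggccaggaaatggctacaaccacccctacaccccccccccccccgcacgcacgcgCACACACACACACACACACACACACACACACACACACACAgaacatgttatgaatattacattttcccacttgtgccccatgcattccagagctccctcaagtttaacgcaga
Mpped1: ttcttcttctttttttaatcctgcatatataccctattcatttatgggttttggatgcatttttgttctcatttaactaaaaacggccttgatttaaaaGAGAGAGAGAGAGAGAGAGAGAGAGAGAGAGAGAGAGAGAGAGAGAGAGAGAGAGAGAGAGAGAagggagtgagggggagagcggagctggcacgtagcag
Nxpe4: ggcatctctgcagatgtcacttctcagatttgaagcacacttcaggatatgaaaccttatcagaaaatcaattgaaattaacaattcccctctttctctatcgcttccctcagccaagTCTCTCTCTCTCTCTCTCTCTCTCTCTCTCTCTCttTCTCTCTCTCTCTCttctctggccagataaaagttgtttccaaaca
Lmbrd1: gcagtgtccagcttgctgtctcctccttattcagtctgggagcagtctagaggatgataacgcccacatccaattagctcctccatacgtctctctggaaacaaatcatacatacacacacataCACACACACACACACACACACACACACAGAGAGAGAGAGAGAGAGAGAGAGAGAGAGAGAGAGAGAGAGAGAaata
Zfp957: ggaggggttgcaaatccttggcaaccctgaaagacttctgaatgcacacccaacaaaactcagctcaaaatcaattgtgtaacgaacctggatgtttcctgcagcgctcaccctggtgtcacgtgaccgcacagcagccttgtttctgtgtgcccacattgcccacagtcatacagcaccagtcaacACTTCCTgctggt

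The windows at Ebf1 and Pdgfa hold CA repeats of 22 and 20 units, written as TG in Ebf1. Mpped1 holds 32 GA units, Nxpe4 holds GA repeats of 17 and 7 units, and in Lmbrd1 a CA repeat of 14 units runs straight into a GA repeat of 22 units. The windows at Pcnx2, Sdc2 and Il31ra hold no CA or GA repeat and each carries the RUNX letters, on the plus strand only in Il31ra. Repeats of other kinds were not left out, and the genome marks 94.5% of the Pcnx2 window as repeat, 14.5% at Sdc2 and 0% at Il31ra. Zfp957 carries the ETS letters.

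CA and GA repeats were the most common feature of the intronic regions among those looked for. This measure was chosen after the data had been seen, and repeats were counted as 6 or more units in the 200 bp around the mean summit. A CA repeat was present in 36.8% of the 20975 intronic regions, a GA repeat in 19.2%, either one in 47.6% and both in 8.42%. In intronic tiles of the same length the shares were 3.55%, 1.32%, 4.53% and 0.34%. Repeats of AT were found in 2.59% of intronic regions and 0.50% of tiles, and runs of 12 or more A or T bases were no more frequent in the regions (1.88%) than in the tiles (2.56%).

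The same repeats stood at intergenic regions and less often at promoters. Either repeat was found in 49.0% of intergenic regions and 21.8% of promoter regions held by 2 to 4 libraries. Promoter tiles had 3.5%. Among intronic regions the share was 44.7% of those held by 2 libraries, 60.5% of those held by 3 and 55.1% of those held by 4. Intronic regions held by 5 to 8 libraries, outside the rule, had 37.9%, and those held by 9 to 16 had 5.26%.

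The repeats sat at the summits and not along the whole region. CA repeats covered 9.28% of bases at the mean summit and 0.526% of bases 500 bp or more away, and GA repeats covered 5.14% and 0.222%. At promoter regions CA repeats covered 4.21% of bases at the summit. The repeats were also longer than those of the intron at large. The median CA repeat in an intronic region had 20 units against 14 in tiles, and the median GA repeat 22 against 16. Read along the direction of the host gene, 44.3% of regions with a CA repeat held it as CA only and 54.5% as TG only, and the tiles split in the same way with 44.5% and 54.3%.

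**Figure D1:**
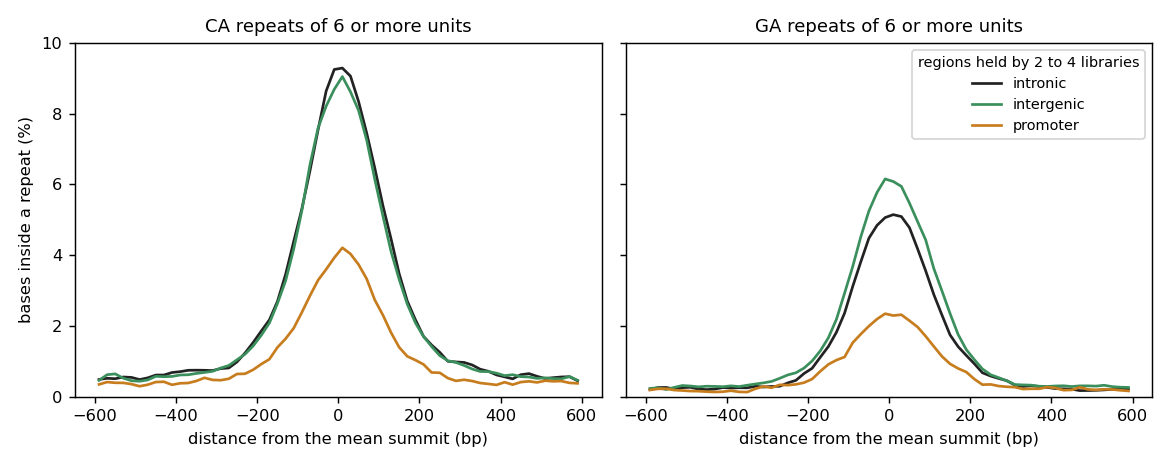
Share of bases that lie in a CA repeat (left) or GA repeat (right) of 6 or more units, in percent, against the distance from the mean summit in bp, for regions held by 2 to 4 libraries in introns, between genes and at promoters. The intronic curves rise to 9.28% for CA and 5.14% for GA at the summit and fall to 0.526% and 0.222% at 500 bp or more.

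Repeats were more frequent in taller peaks. Of intronic regions with a pileup of 3 fragments in the weakest library, 31.5% held a CA or GA repeat, and the share was 45.9% at 4 fragments, 57.7% at 5 and 63.5% at 6 or 7. With 8 or 9 fragments it was 69.4% (95% exact binomial interval 65.4 to 73.2), and with 10 or more 66.7% (59.1 to 73.7), so the last 2 steps could not be ordered. Regions with a repeat were a little narrower, with a median width of 333 bp against 405 bp, and in regions held by 2 libraries the summits lay a median of 94 bp apart with a repeat and 118 bp without. The median GC content was 45.0% with and 45.5% without a repeat, and 42.5% in tiles. Soft-masked bases, which the genome marks as repeats of any kind, made up 56.2% of the window with a repeat, 31.1% without one and 28.9% in tiles.

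Transcription factor motifs were looked for as fixed letters on both strands, which gives a description of the sequence and not a bound site. The letters were TGTGGTT for RUNX, AGGAAGT for ETS, TGANTCA for AP-1, CTTTGAT for TCF7 and LEF1, GGTGTGA for T-box factors, AGGNGGC for CTCF, GGGCGG for KLF and SP factors, TGTTTAC for FOX and GAANNGAAA for IRF. None of these 9 motifs contains another, and TGTG within the RUNX letters also occurs in CA repeats. Over all intronic regions most shares were at or below those of intronic tiles. RUNX letters were in 4.67% of regions and 4.81% of tiles, ETS in 4.67% and 4.72%, AP-1 in 5.10% and 6.07%, CTCF in 7.58% and 8.04%, IRF in 6.11% and 7.01%, TCF7 and LEF1 in 2.83% and 3.74%, FOX in 2.49% and 3.01%, and T-box in 2.40% and 2.68%. The KLF and SP letters were the exception with 2.78% against 1.87%. Promoter regions held by 2 to 4 libraries differed most for KLF and SP with 29.1% and for CTCF letters with 21.0%.

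The picture changed in regions without a CA or GA repeat, where RUNX and ETS letters, among others, became more frequent as more libraries held the region. RUNX factors are required for CD8 T cell identity, and ETS factors bind many lymphoid enhancers. RUNX letters were in 510 of 9337 repeat-free intronic regions held by 2 libraries (5.46%, interval 5.01 to 5.94), 87 of 1307 held by 3 (6.66%, 5.37 to 8.15) and 40 of 350 held by 4 (11.4%, 8.29 to 15.2). Outside the rule, in intronic regions of 5 to 8 libraries, they were in 43 of 262 (16.4%, 12.1 to 21.5). Repeat-free tiles had 4.86%, where repeat-free means without a CA or GA repeat and not without repeats of other kinds. ETS letters went from 5.71% (5.25 to 6.2) with 2 libraries to 7.57% (6.2 to 9.14) with 3 and 11.7% (8.54 to 15.6) with 4, with 4.79% in tiles. The intervals cover counting error only, and neighbouring regions of 1 gene were counted as separate. Regions are not replicates, so the intervals here and in the next paragraph are no test of a trend over the number of libraries.

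AP-1 letters were in 5.89% (5.42 to 6.39) of such regions held by 2 libraries and 8.0% (5.38 to 11.4) of those held by 4, and CTCF letters in 9.60% (9.01 to 10.2) and 12.3% (9.04 to 16.2), with overlapping intervals. T-box letters were in 2.77% (2.45 to 3.13) and 4.86% (2.85 to 7.66), and KLF and SP letters in 3.94% (3.56 to 4.36) and 7.14% (4.68 to 10.4). TCF7 and LEF1 letters, which the memory factors of those names bind, stayed between 3.22% and 4.13% and near the 3.8% of tiles. The median GC content of these repeat-free regions rose too, from 45.0% with 2 libraries to 46.5% with 3, 48.5% with 4 and 49.5% with 5 to 8, and their median width from 389 to 512, 589 and 660 bp. Shares of IRF and FOX letters by number of libraries are not given here. The part of base composition and width in the motif shares was not tested.

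**Figure D2:**
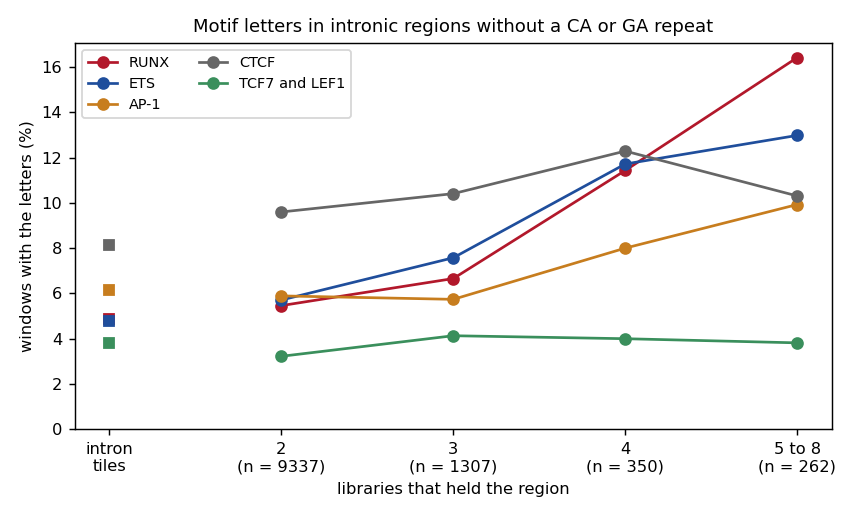
Percent of 200 bp windows that hold the letters of a motif on either strand, in intronic regions without a CA or GA repeat, by the number of libraries that held the region, with squares for intronic tiles. RUNX letters go from 5.46% with 2 libraries to 11.4% with 4 and 16.4% with 5 to 8, and the tiles are at 4.86%.

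The numbers of intronic regions held by each library were set side by side to ask whether loss of pyruvate dehydrogenase or the culture moved them. WT TE libraries held 655, 1871, 83 and 258 intronic regions, and TPdh-/- TE libraries held 3371, 2821, 5269 and 4384. WT TM libraries held 4013, 2384, 1491 and 3220, and TPdh-/- TM libraries held 4047, 4968, 4183 and 3800. All 4 TPdh-/- TE libraries lay above all 4 WT TE libraries, and in TM the range of TPdh-/- overlapped that of WT at its upper end. The means were 717 ± 806 (SD, n = 4), 3961 ± 1086, 2777 ± 1085 and 4250 ± 505 in the same order.

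On the log2 scale the TPdh-/- TE libraries held 3.26 more than WT TE (two-sided exact permutation test, p = 0.0286, the smallest that 4 against 4 allows; adjusted over 4 comparisons 0.0762). The difference was 0.70 between TPdh-/- TM and WT TM (exact p = 0.0571, adjusted 0.0762), 2.69 between WT TM and WT TE (exact p = 0.0571, adjusted 0.0762) and 0.14 between TPdh-/- TM and TPdh-/- TE (exact p = 0.571). None passed after adjustment. With the local background as a covariate the TE difference was 1.05 (permutation p = 0.343), and the TM difference turned to -0.12 (permutation p = 0.743). In lists of equal size the TE difference was 1.09 (exact permutation p = 0.0286) and the TM difference -0.12 (exact p = 0.429). The groups that held few regions were those with the fewest peaks and the highest background, so background, peak number and group cannot be told apart.

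**Figure D3:**
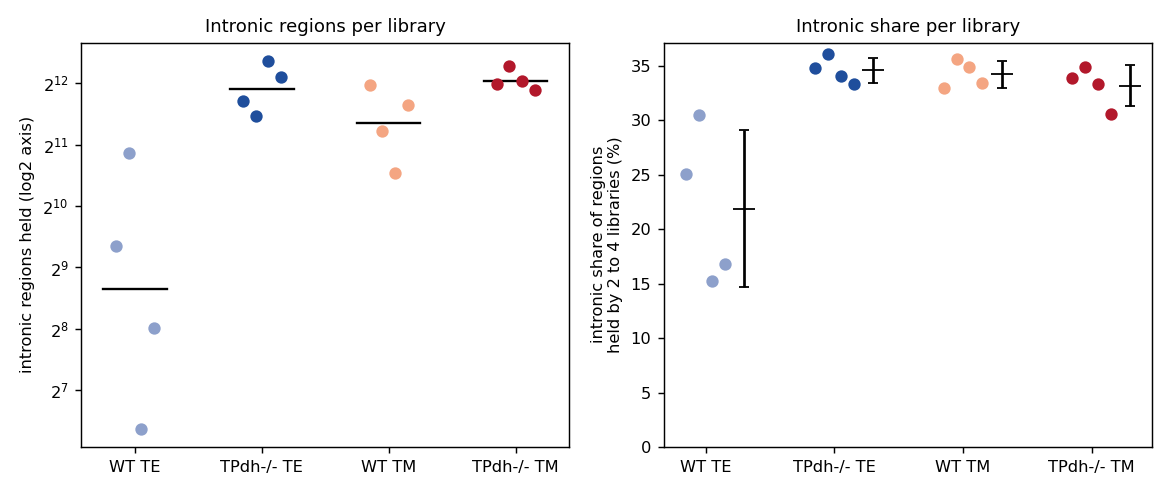
Number of intronic regions held by each library on a log2 axis (left, bars at the mean of log2 values) and the intronic share of its regions held by 2 to 4 libraries in percent (right, mean and SD beside the points), with 4 libraries a group. The WT TE libraries, with 83 to 1871 intronic regions and shares of 15.2% to 30.5%, lie below all 4 TPdh-/- TE libraries in both panels.

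The intronic share sets these numbers against the other regions of the same library that 2 to 4 libraries held. It was 25%, 30.5%, 15.2% and 16.8% in WT TE, with a mean of 21.9% ± 7.20, and 34.6% ± 1.15 in TPdh-/- TE, 34.2% ± 1.25 in WT TM and 33.2% ± 1.85 in TPdh-/- TM (SD, n = 4). All WT TE libraries lay below all libraries of the other groups. The share was 12.7 points higher in TPdh-/- TE than in WT TE and 12.4 points higher in WT TM than in WT TE (exact permutation p = 0.0286 and adjusted p = 0.0571 for both). With the background as a covariate these became 1.43 points (permutation p = 0.514) and 0.0190 points (permutation p = 1), whereas in lists cut to the 2270 strongest peaks of every library they grew to 23.9 and 18.8 points (exact permutation p = 0.0286 for both). The difference between the TM groups was -1.03 points (exact p = 0.457), and that between the TPdh-/- groups was -1.40 points (exact p = 0.257). In the lists of equal size these were -5.77 points (exact p = 0.286) and -10.8 points (exact p = 0.0857).

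Base composition at the summits moved with the same group. The median GC content at the summits of intronic regions averaged 47.1% ± 0.854 in WT TE, 45.4% ± 0.25 in TPdh-/- TE, 45.4% ± 0.25 in WT TM and 45.1% ± 0.25 in TPdh-/- TM (SD, n = 4). It was 1.75 points higher in WT TE than in either TPdh-/- TE or WT TM (exact permutation p = 0.0286, adjusted p = 0.0571). With the background as a covariate TPdh-/- TE minus WT TE was -0.770 points (permutation p = 0.114) and WT TM minus WT TE -0.124 points (permutation p = 0.686).

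The share of a library's intronic regions that held a CA or GA repeat was lowest in TPdh-/- TM. It was 36.2%, 35.9%, 32.5% and 25.7% in the 4 TPdh-/- TM libraries and 41.3%, 62.0%, 64.5% and 44.0% in the WT TM libraries, with no overlap. In TE the shares were 47.2%, 53.3%, 54.2% and 58.9% in WT and 56.9%, 54.8%, 46.7% and 44.3% in TPdh-/-, and these ranges overlapped. The means were 32.6% ± 4.88 in TPdh-/- TM, 52.9% ± 12 in WT TM, 53.4% ± 4.82 in WT TE and 50.7% ± 6.14 in TPdh-/- TE (SD, n = 4).

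TPdh-/- TM differed by -20.4 points from WT TM and by -18.1 points from TPdh-/- TE (exact permutation p = 0.0286 and adjusted p = 0.0571 for both). The genotype difference in TE was -2.73 points (exact p = 0.514), and the genotype difference in TM was 17.7 points more negative than that in TE (permutation p = 0.0260). TPdh-/- TM libraries held 1395 ± 332 intronic regions with a repeat and WT TM libraries 1379 ± 296, a log2 difference of 0.01 (exact p = 0.914). Without a repeat they held 2854 ± 249 and 1399 ± 833 (SD, n = 4), a log2 difference of 1.25 (exact permutation p = 0.0286, adjusted p = 0.0571).

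The make-up of the libraries by pileup differed between the groups too. Intronic regions with 3 or 4 fragments in the library itself made up 52.5% ± 1.92 of those in TPdh-/- TM, 17.2% ± 11.6 in WT TM, 38.0% ± 20.6 in TPdh-/- TE and 0% in WT TE, where no intronic region had fewer than 5 fragments. The repeat shares by pileup given above used the weakest library that held a region, which is another measure. The part of pileup in the repeat shares of the groups was not tested. Within WT TM the backgrounds were 0.355, 0.354, 0.572 and 0.364 fragments in replicate order, beside 53626, 23453, 13039 and 34263 peaks, and the repeat share was higher in the libraries with fewer peaks. When every library was cut to its 2270 strongest peaks, which left 461 intronic regions by the same rule, the shares were 65.6%, 61.7%, 50.7% and 44.3% in TPdh-/- TM against 59.5%, 68.2%, 74.4% and 60% in WT TM, a difference of -9.96 points (exact p = 0.171). With the background as a covariate the TM genotype difference was -2.04 points (permutation p = 0.857). In the equal-sized lists TPdh-/- TE libraries had 68.4%, 73.2%, 70.5% and 65.8% and WT TE libraries 42.5%, 59.6%, 38.7% and 33.3%, so that the sign in TE turned to 25.9 points (exact p = 0.0286).

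**Figure D4:**
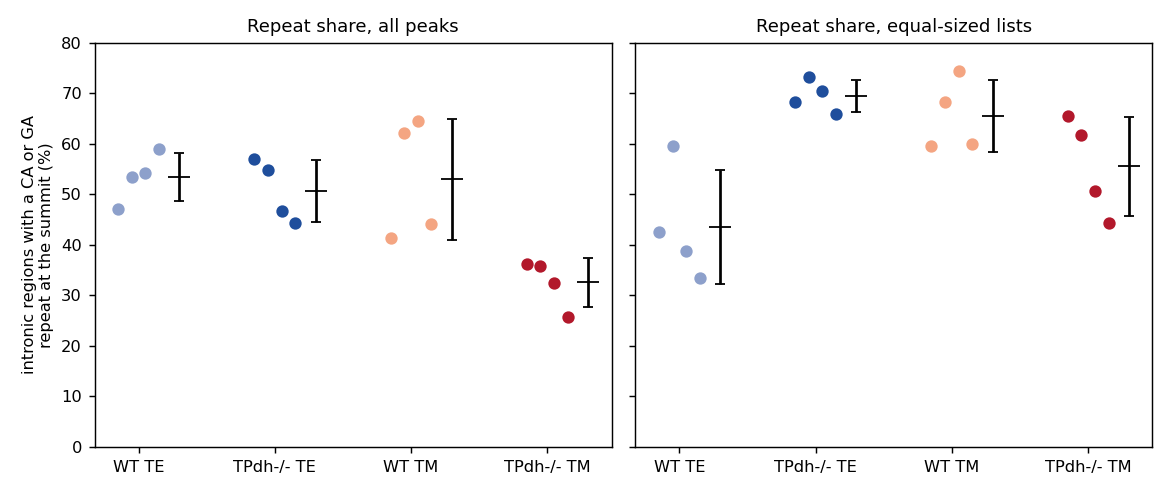
Percent of each library's intronic regions with a CA or GA repeat at the summit, with all peaks (left) and with the 2270 strongest peaks of every library (right), with the mean and SD beside the 4 points of each group. With all peaks TPdh-/- TM lies at 25.7% to 36.2%, below the other groups, and in equal-sized lists it overlaps WT TM while WT TE lies lowest.

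Repeat shares were also taken outside the members. Intergenic regions held by 2 to 4 libraries had 33.7% in TPdh-/- TM, 53.7% in WT TM, 51.4% in TPdh-/- TE and 51.5% in WT TE. Intronic regions held by 1 library had 11.2%, 26.9%, 21.7% and 36.7% in the same order. Promoter regions held by 2 to 4 libraries had 14.8%, 31.8%, 28.8% and 8.47%, so that WT TE was lowest there. Of the 2274 intronic regions held by TPdh-/- TM libraries only, 22.6% had a repeat, beside 56.7% of the 1741 held by TPdh-/- TE libraries only, 58.4% of the 712 held by WT TM only, 44.6% of the 56 held by WT TE only and 53.2% of the 10174 held by both genotypes.

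Most intronic regions were not those of 1 group. Only 4783 (22.8%) were held by libraries of a single group, 10174 (48.5%) by both genotypes, 9494 (45.3%) by TPdh-/- libraries only and 1307 (6.23%) by WT libraries only. Intergenic regions of 2 to 4 libraries split almost alike, with 23.3% held by a single group, 48.3% by both genotypes and 45.7% by TPdh-/- libraries only, and promoter regions had 18%, 58.3% and 33.4%. TPdh-/- TM touched 64.1% of them, TPdh-/- TE 61.8%, WT TM 46.5% and WT TE 13%, in the order of the groups' mean number of peaks. Between any pair of libraries few regions were shared. As a percent of the smaller library, pairs within TPdh-/- TM shared a median of 16.1% (13.5 to 17.2), within TPdh-/- TE 15.7% (11.8 to 17.8), within WT TM 11.5% (9.12 to 12.7) and within WT TE 10.8% (7.23 to 14.3). Pairs between groups had medians of 9.86% to 13.5%, and those between WT TM and the TPdh-/- groups, 12.7% with TE and 12.4% with TM, lay above that within WT TM. The rule admits at most 4 libraries, which by itself keeps sharing low.

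**Figure D5:**
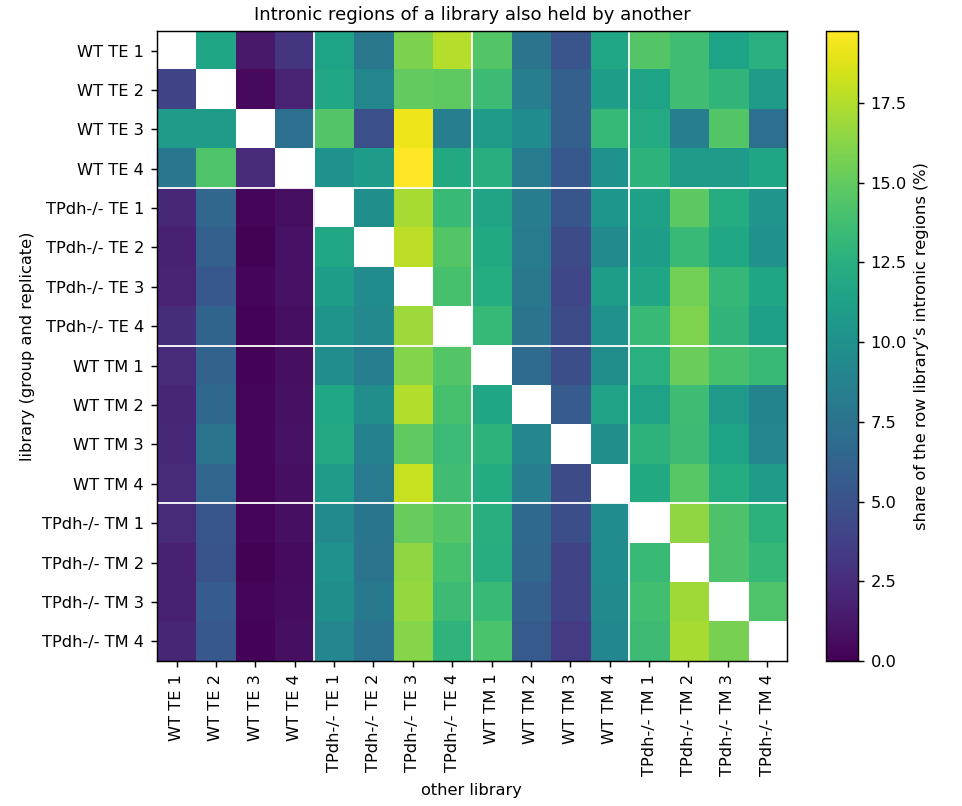
Percent of the intronic regions of the library named on the left that the library named below also held, for all pairs of 16 libraries in group order. The columns of the libraries with many regions (TPdh-/- TE replicate 3 with 5269, TPdh-/- TM replicate 2 with 4968) are bright in all groups, and those of WT TE replicates 3 and 4, with 83 and 258, are dark.

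Regions that set a pair of groups fully apart, present in 4 of 4 libraries on one side and in 0 of 4 on the other, were counted next. Under the limit of 4 libraries such a member was held by exactly 1 whole group, and only 7 of the 20975 intronic regions were. TPdh-/- TM against WT TM gave 6 (4 held by TPdh-/- TM and 2 by WT TM), where 0.155% of all 67791 regions held by 2 or more libraries separated these groups. TPdh-/- TE against WT TE gave 1, beside 0.117%. WT TM against WT TE gave 2, beside 0.119%, and TPdh-/- TM against TPdh-/- TE gave 5, beside 0.142%. The 67791 include regions held by more than 4 libraries, which members cannot be, so the like reference is the regions held by 2 to 4. Among all 61970 of these the counts were 18, 9, 6 and 21, or 0.0290%, 0.0145%, 0.00968% and 0.0339%. The shares of the intronic regions were 0.0286%, 0.00477%, 0.00954% and 0.0238%, on few regions. In Fisher's exact test per region, which cannot go below 0.0286 here, no region passed after adjustment over 67791 (adjusted p = 1), and 105, 79, 81 and 96 regions had an unadjusted p under 0.05. When 1 library was left out, so that 3 of 3 sufficed in its group, the counts reached as many as 55, 34, 16 and 46. The comparisons share groups, so the same member can count in more than 1 of them.

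WT TM had 2 such members. The one in Pcnx2, a gene for a pecanex-like membrane protein, lay at chr8:125779071-125779237 and had pileups of 27, 24, 49 and 25 fragments in the 4 WT TM libraries, with no peak in any other library. It was the strongest of all intronic regions, with a fold enrichment of 15.3 in its weakest library and summits within 6 bp of each other, and 94.5% of its window was soft-masked. The one in Lmbrd1, which encodes a lysosomal cobalamin exporter, lay at chr1:24759587-24759891 with 9, 5, 7 and 7 fragments and holds the joined CA and GA repeats shown above. The Pcnx2 region was several times taller than the other 6.

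TPdh-/- TM had 4 such members, all low. They lay in Zfp957, a zinc finger gene, at chr14:79243224-79243773 with 6, 4, 5 and 7 fragments, in Unc80, a subunit of a sodium leak channel, at chr1:66552565-66553146 with 3, 4, 6 and 6, in Frmd4a, a scaffold protein gene, at chr2:4580557-4581038 with 4, 3, 5 and 5, and in Itpk1, an inositol phosphate kinase, at chr12:102627969-102628712 with 3, 6, 3 and 3. None of the 4 held a CA or GA repeat. TPdh-/- TE had 1 such member, in C130026I21Rik, with 5, 6, 5 and 5 fragments in a window that was 100% soft-masked. WT TE had 0. None of the 7 lay in a gene of the T cell, metabolic or neuronal lists described further on.

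The members with the highest fold enrichment in their weakest library were mostly held by 2 libraries of different groups. After Pcnx2 came Ebf1, which encodes a B cell lineage factor, at chr11:44655867-44656043, with 22 fragments in TPdh-/- TE replicate 4, 19 in TPdh-/- TM replicate 2 and a lowest fold enrichment of 13.5. The region in Sdc2, a heparan sulphate proteoglycan, at chr15:33027570-33027782 had 19 fragments in WT TM replicate 2 and 17 in TPdh-/- TM replicate 2, with summits 1 bp apart and a lowest fold enrichment of 13.1. Il31ra, a cytokine receptor subunit, held a region at chr13:112578049-112578308 in 4 libraries of 3 groups, with 18 fragments in TPdh-/- TE replicate 2, 15 and 24 in WT TM replicates 2 and 3 and 15 in TPdh-/- TM replicate 2.

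The growth factor gene Pdgfa held one at chr5:138981750-138982289 with 16 fragments in WT TM replicate 4 and 21 in TPdh-/- TM replicate 3. In Erbb4, a receptor tyrosine kinase gene, the region at chr1:68258875-68259399 had 14 fragments in each of TPdh-/- TE replicate 3 and TPdh-/- TM replicate 4, with summits 238 bp apart. Lrch1 (chr14:74908307-74908757), Mpped1 (chr15:83842531-83843059), Nxpe4 (chr9:48183152-48183490) and Snd1 (chr6:28931889-28932166), a nuclease and coactivator gene, completed the 10 with lowest fold enrichments of 11, 10.9, 10.9 and 10.3. Of these 10 regions, 4 held a CA repeat, 2 a GA repeat and 4 neither, and 8 were held by exactly 2 libraries. Of the 10, Pcnx2 alone was held by all 4 libraries of a group.

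The intronic regions were spread over many genes, with more of them in longer genes. They lay in 7000 of 20807 autosomal protein-coding genes (33.6%), of which 3273 held 1 and 1193 held 5 or more, and 451 regions lay in more than 1 gene. There were 21.0 regions per Mb of gene. The 1000 longest genes made up 41.1% of gene length and held 45.0% of the regions, and Spearman's rho between the number of regions and gene length was 0.694 over genes, which is a description since genes are not independent. Genes under 20 kb held 10.8 regions per Mb, and genes in the length classes from 50 kb up held 21.7 to 23.5. A stretch of 1000 bp around each start was left out by the rule, which weighs most on short genes.

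The genes with most regions were long. The predicted gene model Gm20388 held 113, of which 43 lay in another gene as well, and the growth factor receptor gene Fgfr2, whose annotated body spans other genes, held 77, of which 34 did. Then came Cntnap2, a neuronal adhesion gene, with 51, the oxidoreductase gene Wwox and the catenin gene Ctnna3 with 50 each, the synaptic scaffold gene Dlg2 with 49, Rbms3 and Lsamp with 47, the phosphodiesterase gene Pde4d with 45, and the nuclear receptor gene Rora, Macrod2 and Ptprd with 44 each. In 23 neuronal adhesion and synapse genes 708 regions gave 22.3 per Mb, close to the 21.0 of all genes, and without repeats 10.5 beside 11.

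Per Mb, the order of the genes with 5 or more regions was different, and by its construction it favours the shorter of them. Gm21970 had 180 per Mb, with all 5 of its regions in another gene as well, Myoz2, a muscle sarcomere gene, 174, Tmem273 156 and Srgn, the proteoglycan of cytotoxic granules, 149. Scn4a, Tekt5, Sfi1, Gucy2g, Dram1 and Tyw1 followed with 144, 133, 130, 116, 107 and 105.

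Lists of genes that T cells use, chosen with earlier results of these data known, were set beside all genes by the regions per Mb over the whole list. Memory and quiescence factors had a region in 8 of 12 genes with 56 in all, or 36.7 per Mb, and 25.5 per Mb without repeats. Effector factors and products had 6 of 14 genes and 29.6 per Mb (20.5 without repeats). Genes of T cell receptor signalling had 16 of 26 and 35.8 per Mb (21.5), cytokine receptors and their signalling 10 of 18 and 37.9 (21.5), inhibitory receptors and their regulators 5 of 10 and 31.6 (17.4), and homing and adhesion genes 7 of 11 and 45.8 (28.0). All genes had 21 and 11. Genes of acetyl-CoA and pyruvate metabolism, the pathway that Pdha1 serves, had a region in 5 of 19 genes and 18.2 per Mb (13.2), and histone acetylation enzymes in 9 of 18 and 24.7 (14.3). Bach2 and Foxp1 held 18 each of the 56 regions of the memory factors, and Tox held 13 of the 20 of the inhibitory list. The median gene had 26.0 regions per Mb in the memory list, 22.6 in T cell receptor signalling, 25.7 in homing, 17.5 in the cytokine list, 12.4 in the inhibitory list and 0 in the effector list and in all genes. No test was made of these densities, and the lists differ in gene length, with medians of 60.5 kb for the memory factors and 14.8 kb for the effector list.

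Among the memory factors, Bach2 and Foxp1 held 18 regions each. Bach2, a repressor that holds T cells in a quiescent state, had 51.8 per Mb, and 15 of its regions were held by 2 libraries, 2 by 3 and 1 by 4. TPdh-/- TM libraries touched 13 of the 18, TPdh-/- TE 11, WT TM 4 and WT TE 3, and 5 held a CA or GA repeat. Over all intronic regions the groups touched 64.1%, 61.8%, 46.5% and 13% in the same order. Its strongest region, at chr4:32262554-32262936, had 7 fragments in WT TM replicate 4 and 14 in TPdh-/- TM replicate 4 and held both repeats. Foxp1, a factor of naive T cells, had 30.1 per Mb and was touched in the same order, 13, 9, 7 and 3. Lef1 had 7 (61.5 per Mb), Satb1 and Zeb1 4 each, Bcl6 3, and Foxo1 and Tcf7 1 each, while Eomes, Id3, Klf2 and Myb had 0.

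In the whole memory list, TPdh-/- TM libraries held 14, 13, 13 and 16 regions, WT TM libraries 10, 2, 2 and 8, TPdh-/- TE libraries 7, 7, 14 and 10 and WT TE libraries 1, 7, 1 and 2. The TPdh-/- TM libraries lay above all WT TM libraries, as they also held more peaks. As a share of each library's intronic regions, counted once for every gene they lay in, the list took 0.251% to 0.412% in TPdh-/- TM and 0.0820% to 0.243% in WT TM. In TE the order was the other way for most libraries, with 0.201% to 0.258% in TPdh-/- and 0.148%, 0.361%, 1.20% and 0.760% in WT, on few regions.

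Of the effector list, Prdm1 and Zeb2, whose products drive terminal effector differentiation, had 4 each, Batf had 2, Gzmk, Runx3 and Tbx21 had 1 each, and Ifng, Gzma, Gzmb, Prf1, Fasl, Klrg1, Id2 and Irf4 had 0. Of these 13 regions, TPdh-/- TM libraries held 2, 0, 3 and 3, WT TM libraries 3, 2, 3 and 3, TPdh-/- TE libraries 2, 0, 4 and 2 and WT TE libraries 0, 1, 0 and 0. As a share of each library's regions, counted once for every gene, the list took 0% to 0.0772% in TPdh-/- TM and 0.0730% to 0.188% in WT TM, on few regions.

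In T cell receptor signalling the kinase gene Camk4 held 11 regions, the transcription factor gene Nfatc2 held 8, the kinase gene Prkcq 7, and Fyn, Ikzf1, Ptprc and Themis 5 each. The strongest in Nfatc2, at chr2:168492026-168492446, held a GA repeat and had 12 and 21 fragments in WT TE replicates 2 and 4 and 7 in TPdh-/- TE replicate 3. The strongest in Prkcq, at chr2:11278018-11278546, was held by 4 libraries of 3 groups, with 15 fragments in WT TE replicate 1, 9 in TPdh-/- TE replicate 1 and 7 and 12 in WT TM replicates 2 and 4. In Ptprc, the CD45 gene, the region at chr1:138136504-138136676 held RUNX and CTCF letters and no repeat, with 16 fragments in WT TE replicate 1 and 5 in WT TM replicate 1. Cd3d, Cd3e, Cd3g, Cd8a, Lck, Lat and Zap70, all short genes, had 0.

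Tgfbr2, the TGF-beta receptor, led the cytokine list with 7 regions (76.9 per Mb), followed by Il12rb2, Jak1 and Stat5b with 4 each. Its strongest region, at chr9:116173968-116174137, lay 1128 bp from a start, held a CA repeat and had 10 fragments in each of WT TE replicate 2 and TPdh-/- TE replicate 3. Il15ra, Il2rb and Il7r, which receive or share the cytokines of memory cells, had 0. Tox, a regulator of exhausted T cells, held 13 of the 20 regions of the inhibitory list (42.6 per Mb), Pdcd1 and Ctla4 held 1 each, and Lag3, Havcr2 and Tigit 0.

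Among homing and adhesion genes the memory marker Cd44 held 6 regions and the integrin gene Itgae 4. Over the homing list, TPdh-/- TE libraries held 6, 2, 5 and 5 regions and WT TE libraries 1, 1, 0 and 0, while TPdh-/- TM libraries held 5, 6, 5 and 3 and WT TM libraries 2, 0, 2 and 3. As a share of each library's regions, counted once for every gene, the list took 0.0689% to 0.172% in TPdh-/- TE and 0% to 0.148% in WT TE, and 0.0772% to 0.120% in TPdh-/- TM and 0% to 0.125% in WT TM, with overlap in both.

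Among metabolic genes Cpt1a, the carnitine palmitoyltransferase that lets long-chain fatty acids into mitochondria, held 4 regions (63.1 per Mb), each held by 2 libraries. TPdh-/- TM touched all 4, TPdh-/- TE 3, and no WT library any. The strongest, at chr19:3354315-3354636, had 4 fragments in TPdh-/- TE replicate 2 and 10 in TPdh-/- TM replicate 3. Of all intronic regions 45.3% were held by TPdh-/- libraries only, which these 4 are to be read against. Hk2 held 3 and Acss2, a cytosolic acetyl-CoA synthetase, 2, and none of the other subunits of the pyruvate dehydrogenase complex (Pdhb, Dlat, Pdhx, Dld), its kinases (Pdk1, Pdk2, Pdk4) or its phosphatases (Pdp1, Pdp2) held any. Among histone acetylation enzymes the deacetylases Hdac9, Hdac4 and Hdac7 held 17, 9 and 4 and the acetyltransferase Kat6b held 9. The strongest region in Hdac9, at chr12:34637329-34637905, was held by 1 library of each group, with 11 fragments in WT TE, 6 in TPdh-/- TE, 6 in WT TM and 8 in TPdh-/- TM.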

How the data were processed

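ATAC-seq peak lists of 16 libraries were analysed as deposited; sequencing reads were not used here. Per the study's methods and the submitters' processing notes, the authors trimmed adapters with Trimmomatic, aligned pairs to GRCm38 with BWA 0.7.17, filtered with SAMtools, dropped reads with alternative or split alignments and reads in blacklisted regions, and called peaks with MACS2 2.2.7.1 in paired-fragment mode. Use of a control, duplicate removal and a cut-site offset were not given in the sources used here. The lists were named for 1 library each. Per peak, the authors deposited a score (10 times the −log10 q-value, whole part, not used in a result), a fold enrichment, which is a ratio with 1 added to pileup and background, a −log10 p-value and a −log10 q-value; the lowest −log10 q-value was 1.30. Filtering of reads that map more than once bears on repeats.

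Summit pileup and background were solved from the fold enrichment and p-value, and 100% of 628947 autosomal peaks gave a whole pileup within 0.01 of the deposited −log10 p-value. Background stood for the number of fragments used in peak calling, since their totals were not given. Starts, exons and gene bodies came from GENCODE M21 and sequence from the RefSeq GRCm38 genome. Tiles of 200 bp every 5000 bp were the sequence reference. Libraries were grouped by genotype and cell type in their labels. Group means were compared with two-sided exact permutation tests over 70 arrangements, with Benjamini-Hochberg adjustment over 4 comparisons, and differences between genotype effects with 100000 permutations. Same-numbered libraries did not deviate together (0 of 16 correlations over 0.1, range -0.0203 to 0.0730), so numbers were not treated as pairs. Named genes were the 10 strongest members, the 10 genes with most members (with ties) and most per Mb, members held by exactly 1 group, and genes of the lists. The strongest members and those held by 1 group supplied the windows, and which of them to print was in part chosen after their values were seen. Alternatives were stricter peak lists, equal-sized lists, other overlap, library and distance limits, a background covariate, a replicate block and leaving out each library. Members and lists were chosen with earlier results of these data known. Some listed genes and 1 window are not reported here. Steps were tested on simulated data. Python 3.11, numpy 2.4.6, pandas 2.3.3, scipy 1.17.1, matplotlib 3.10.9 and pysam 0.24.0 were used.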

Additional observations from a re-analysis of the deposited data

Results flagged for a closer look

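The genotype difference in TM was set against that in TE in a permutation test, and 5 of 5 measures had an unadjusted p under 0.05. The background was 1 of the 5, and the repeat share was chosen after the data had been seen. The TM difference minus the TE difference was -2.56 on the log2 scale for the number of intronic regions (p = 0.0132, 100000 permutations), -13.8 points for the intronic share (permutation p = 0.00181), 1.5 points for GC content at the summits (permutation p = 0.0108) and -17.7 points for the CA or GA repeat share (permutation p = 0.0260). The local background differed in the same test by 1.04 on the log2 scale (permutation p = 0.0385), and its part in the other 4 was not tested by this comparison.

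Some libraries stood apart within their group, by Dixon's test of the gap to the next library. The median GC content was 45.0% in TPdh-/- TE replicate 1 and in WT TM replicate 2 and 45.5% in TPdh-/- TM replicate 1, where the other 3 libraries of each group were tied, since this median moves in small steps. WT TM replicate 3 had a background of 0.572 fragments, above the 0.354 to 0.364 of the other WT TM libraries. Of 20 combinations of group and measure 4 passed this limit, and chance gives about 1 in 20.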

How the results depend on the processing

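Of 488 alternative values, 357 kept direction and side of the unadjusted threshold of 0.05, or stayed within 1.5 times for counts. Most of the 488 come from leaving out 1 library, which includes libraries outside the comparison. The replicate block cannot reach the threshold, so this tally does not measure stability. All p-values below are from exact permutation tests. Changes that follow are in log2 for numbers and in points for shares.

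For the repeat share, the TM genotype difference stayed negative and lost its call with −log10 q of at least 5 (-18.2, exact p = 0.0571), fold enrichment of at least 5 (-15.0), equal-sized lists (-9.96), the background covariate (-2.04), the number of peaks as covariate (-5.65) and pileups of at least 6 (-10.8, where TPdh-/- TM against TPdh-/- TE was -15.0, exact p = 0.0857); the last 2 were added after seeing the data. The TE genotype difference turned positive under these except the background covariate (25.6, 14, 25.9, 4.27 and 8.31), and with stricter overlap (5.11) and no upper limit on libraries (5.75). WT TM against WT TE turned to 26.3, 11.6, 22.0, 6.45, 7.76, 10.9, 9.31 and 4.05 in the order −log10 q, fold enrichment, equal-sized lists, overlap, no limit, background, peak number and pileup. The cause was not tested.

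In equal-sized lists the number of regions was -0.12 for TPdh-/- TM against WT TM, 1.09 for TPdh-/- TE against WT TE (exact p = 0.0286), 0.88 for WT TM against WT TE (exact p = 0.0286) and -0.33 for TPdh-/- TM against TPdh-/- TE (p = 0.0286), and GC in TE was -1.88 (p = 0.0571). Stricter overlap made the number between TPdh-/- groups -0.0332. Without repeats the TM genotype difference in number was 1.25 (exact p = 0.0286). With the background covariate the number was -0.12 (TM genotype), 1.05 (TE genotype) and -1.06 (WT TM against WT TE), the intronic share 1.73, 1.43 and 0.0190, and GC -0.770 (TE genotype) and -0.124 (WT TM against WT TE). GC differences of TPdh-/- TM turned to 0.125 against both other groups at −log10 q of at least 5, and to 0.375 against WT TM at fold enrichment of at least 5.

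Regions that separated groups, in the order TPdh-/- TM and WT TM, TPdh-/- TE and WT TE, WT TM and WT TE, and the TPdh-/- groups, numbered 1, 0, 1 and 0 under each of −log10 q, fold enrichment and equal-sized lists. With stricter overlap they were 2 in TM, 1 in WT TM against WT TE and 2 between the TPdh-/- groups, with no upper limit 19 in TM, 8 in TE and 15 between the TPdh-/- groups, and beyond 5000 bp 1 in WT TM against WT TE. The replicate block and the background covariate were not run for these counts.

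The replicate block says nothing on stability: its mean paired differences equal the differences of group means (3.26; 12.7 and 12.4; -1.75 and -1.75; -20.4 and -18.1), and its exact sign-flip test cannot go below p = 0.125, the value each gave. Replicate numbers did not pair the libraries, and 5 of 16 matched their own number best.

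Leaving out 1 library gave ranges in the same order of comparisons. For number they were 0.44 to 0.89, 2.50 to 3.98, 1.93 to 3.41 and 0.00115 to 0.29. For intronic share they were -1.85 to -0.148, 10.9 to 17.2, 10.5 to 16.7 and -2.27 to -0.673. For GC they were -0.375 to -0.208, -2.13 to -1.46, -2.13 to -1.46 and -0.375 to -0.208. For repeat share they were -23.9 to -16.7, -4.49 to -0.0165, -4.24 to 3.68 and -20.5 to -15.7. Separated regions numbered 6 to 55, 1 to 34, 2 to 16 and 5 to 46, and rose more than 1.5 times in 8, 8, 7 and 8 of the 16 omissions. Calls were lost (exact p = 0.0571 to 0.0857) without any TPdh-/- TE library in TE, any WT TM library in WT TM against WT TE, and any TPdh-/- TM library for the repeat share in TM; the number in TM was called without WT TM replicate 1 (0.89) and in WT TM against WT TE without WT TE replicate 2 (3.41).

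The background limits all of this. A pileup of 3 fragments made a peak in the libraries of lowest background, and at least 9 were needed in those of highest. Absence of a region from a library therefore does not show closed chromatin.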
